A study of Mus musculus with 36 samples.

Results

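The 9 genes described here encode proteins that the liver secretes and that act as hormones or carriers elsewhere: *Fgf21*, *Gdf15*, *Angptl4*, *Angptl6*, *Inhbe*, *Ahsg*, *Fetub*, *Lect2* and *Enho*. They were listed by name, with earlier results of these data known, and each matched 1 of the 38283 genes in the count table. Liver RNA was sequenced from 36 mice on a C57Bl/6J background, all 16 weeks old and kept on chow. They were wild type (WT) or heterozygous for the *Pik3r1* Y657* allele (WT/Y657*), with 6 mice in each of 6 groups. *Pik3r1* encodes p85α, the regulatory subunit through which phosphoinositide 3-kinase is coupled to the insulin receptor, and the allele truncates the protein. Livers of each genotype came from ad libitum feeding, from a 16 h fast, or from 6 h of refeeding with chow that followed such a fast. The allele was introduced with a neomycin resistance cassette by gene targeting in embryonic stem cells and is carried by every cell of the animal, so the liver was not its only site. The study's paper describes the fed and fasted mice as males and their controls as wild-type littermates.

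Hepatokines are proteins through which the liver signals its nutritional state to other organs. FGF21 is induced by PPARα during fasting and by ATF4 when amino acids are short or the endoplasmic reticulum is stressed, and it acts on adipose tissue and brain through an FGF receptor and its co-receptor β-Klotho. GDF15 is a stress-induced ligand of GFRAL in the hindbrain, ANGPTL4 inhibits lipoprotein lipase, and the remaining members include an activin subunit, a pair of fetuins, a chemotactic factor and the small peptide adropin.

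The stretches before the start sites of *Fgf21* and *Inhbe* are shown because these members were higher in fasted than in fed livers of both genotypes and both held a C/EBP-ATF response element, the kind of site bound by ATF4 with a C/EBP partner. Capitals mark matches on either strand to TGATGNAA for the C/EBP-ATF element. They also mark the E-box CACGTG, to which basic helix-loop-helix factors bind, and the TATA box TATAAA, and none of these matches overlap each other here. Sequences run 5′ to 3′ on the gene's own strand, from RefSeq on GRCm38.p6.
*Fgf21*, chr7:45615491-45615650, minus strand, bases -160 to -1: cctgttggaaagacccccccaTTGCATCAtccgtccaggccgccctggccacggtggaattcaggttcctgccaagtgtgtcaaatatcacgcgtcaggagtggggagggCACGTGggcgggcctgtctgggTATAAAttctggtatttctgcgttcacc
*Inhbe*, chr10:127351949-127352048, minus strand, 100 bases from base -200: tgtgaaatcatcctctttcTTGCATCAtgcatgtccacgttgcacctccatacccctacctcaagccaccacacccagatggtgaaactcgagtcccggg
The C/EBP-ATF letters began at base -139 in *Fgf21* and -181 in *Inhbe*. Of 32851 promoter windows of 250 bases, 3.45% held these letters, 6.02% held the E-box and 12.4% the TATA box. RefSeq promoters were matched for 7 of the 9 members (9 windows), and *Gdf15*, *Angptl6*, *Ahsg*, *Fetub* and *Lect2* held no C/EBP-ATF match in theirs. These matches describe letters in a window and were not tested for binding.

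Counts per library totalled 8839488 to 19542775, and 13945 genes, including all 9 members, passed the filter on low counts. Levels are given as CPM (counts scaled to a common library size by TMM, the trimmed mean of M-values), and as CPM per kb of exon where members are compared with each other. The summed level of 10 hepatocyte markers was 59256 to 106960 CPM in every library. Of the other cell types, Kupffer cell markers summed to 186 to 627 CPM, stellate cell markers to 296 to 613, endothelial markers to 273 to 429, cholangiocyte markers to 24.01 to 86.5 and lymphocyte and neutrophil markers to 1.06 to 31.3. The 6 adipocyte markers summed to 111 to 3865 CPM, almost all of it *Car3*, which hepatocytes also express; *Lep* was at 0 in 35 mice, *Plin1* in 30 and *Adipoq* in 24, and none of these exceeded 2.65 CPM. In bulk tissue, fewer cells of a type and less RNA per cell cannot be told apart. Mice are named as in the labels, where ALC marks fed, ONF fasted and RF6 refed mice and MT the WT/Y657* genotype. Numbering of the fed mice was tied to genotype: ALC_WT_847 to ALC_WT_850 were all WT, ALC_MT_866 to ALC_MT_869 all WT/Y657*, and only the numbers in between held both (ALC_WT_856, ALC_WT_860 and ALC_MT_857 to ALC_MT_859), so in the fed state genotype and number block can hardly be told apart. No fasted or refed mouse had a number between those of ALC_WT_847 and ALC_MT_869. Where fed mice are compared with fasted or refed mice, feeding state and mouse number therefore cannot be told apart. The root mean square distance of libraries to their group median was 0.28 to 0.47 on the log2 scale, with 144 to 687 genes beyond 1. Refed mice RF6_MT_898 (687 genes) and RF6_WT_828 (621) had the most, and their lymphocyte and neutrophil sums of 31.3 and 23.6 CPM stood apart from 2.29 to 6.00 in the other refed mice. Where leaving out either of them changed a member's call, the value without it is given beside the result.

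Per kb of exon, the members of fed WT livers spanned more than 3 orders of magnitude. *Ahsg*, which encodes fetuin-A, a mineral-binding plasma protein that inhibits the insulin receptor kinase, was highest at 2993 ± 375 CPM per kb (mean ± SD, n = 6). It was followed by *Fetub* (fetuin-B, which preserves the zona pellucida from premature hardening) at 190 ± 30.5 and *Lect2* (a chemotactic hepatokine) at 87.2 ± 6.40. *Angptl4* was next at 26.4 ± 14.6 and *Enho*, the adropin gene, at 14.3 ± 8.38, and these values overlapped in their spread. *Angptl6* stood at 7.91 ± 1.20 and *Inhbe* at 7.21 ± 1.27. The *Inhbe* value is likely too low. It was scaled by 5319 exon bases, whereas the locus counted, 127349401 to 127351772, is shorter. The rank of *Inhbe* per kb is therefore not settled. *Gdf15* at 1.17 ± 0.312 and *Fgf21* at 0.473 ± 0.202 were the lowest. After the fast, WT livers held *Angptl4* at 54.5 ± 10.8 and *Fgf21* at 11.4 ± 2.34 CPM per kb, and *Inhbe*, under the same limit, at 20.6 ± 3.26. *Fgf21* thus passed *Angptl6* (8.82 ± 1.24), *Enho* (2.96 ± 2.08) and *Gdf15* (1.72 ± 0.644). The order of *Ahsg*, *Fetub*, *Lect2* and *Angptl4* was as in fed livers.

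**Figure D1:**
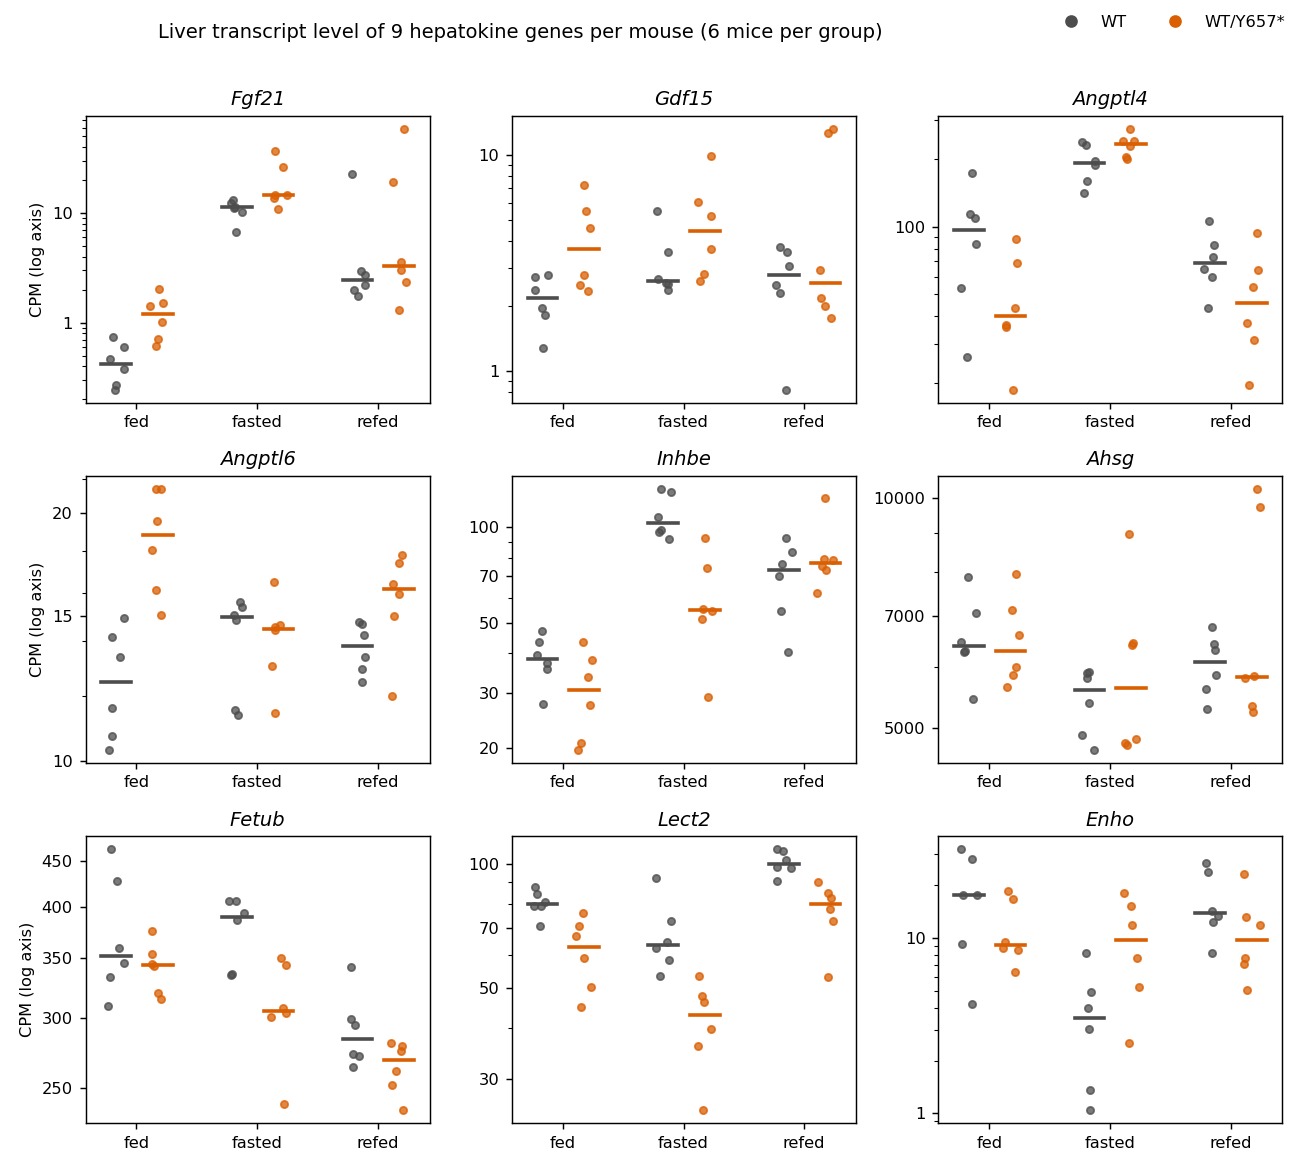
CPM of each member in single mice on log axes, WT in grey and WT/Y657* in orange, with a bar at the median of each group of 6. *Fgf21* is higher in every fasted mouse than in any fed mouse, *Angptl6* is higher in every fed WT/Y657* mouse than in any fed WT mouse, and 2 refed WT/Y657* mice stand above the others in *Fgf21*, *Gdf15* and *Ahsg*.

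Fasting raised *Fgf21*, *Angptl4* and *Inhbe* in both genotypes. In WT mice *Enho* fell as well, so that 4 of 9 members were called, against 32% of all genes tested (adjusted p under 0.05, edgeR's quasi-likelihood test, Benjamini-Hochberg over 13945 genes). In WT/Y657* mice 5 of 9 were called, with *Angptl6* and *Lect2* falling, against 32.9% of all genes. The median log2 fold change of the members was 0.15 in WT and -0.12 in WT/Y657* mice, and that of all genes 0.01 and -0.01. Refeeding after the fast changed 5 members in WT mice (background 30.2%), where *Lect2* and *Enho* rose and *Angptl4*, *Inhbe* and *Fetub* fell, and 2 in WT/Y657* mice (background 31.3%), where *Lect2* rose and *Angptl4* fell. Refed livers differed from fed livers in the same 3 members in each genotype, *Fgf21* and *Inhbe* being higher and *Fetub* lower, beside backgrounds of 27.5% in WT and 26.1% in WT/Y657* mice. Comparisons within a genotype share mice, since each group enters 2 of these contrasts.

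*Fgf21* (ENSMUSG00000030827, chromosome 7, 45613886 to 45615490, minus strand, GRCm38) lay near the detection limit in fed WT livers, with a lowest, median and highest level of 0.245, 0.423 and 0.741 CPM from 3 to 11 counts per library. Fed WT/Y657* livers held 0.613, 1.21 and 2.02 CPM. After the fast the values were 6.75, 11.3 and 13.1 in WT and 10.9, 14.5 and 37.0 in WT/Y657* mice. Fasted and fed mice did not overlap in either genotype. The log2 fold change with fasting was 4.53 (SE 0.96, adjusted p = 0.000469) in WT and 4.01 (SE 0.80, adjusted p = 0.000223) in WT/Y657* mice, 23.1-fold and 16.1-fold.

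Refed livers split into a majority with low and a few with high *Fgf21*. In WT mice 5 of 6 lay between 1.75 and 2.93 CPM, and mouse RF6_WT_900 had 22.7. In WT/Y657* mice 4 of 6 lay between 1.31 and 3.61 CPM, and mice RF6_MT_898 and RF6_MT_810 had 19.4 and 58.2, above every fasted WT mouse. Fitted over all mice, refeeding changed *Fgf21* by -0.87 (SE 0.67, adjusted p = 0.353) in WT and -0.40 (SE 0.63, adjusted p = 0.670) in WT/Y657* mice, neither called. Without mouse RF6_WT_900 the WT value was -2.22 (adjusted p = 0.0141), and without mouse RF6_MT_810 the WT/Y657* value was -1.70 (adjusted p = 0.0278). Leaving out RF6_MT_810 and RF6_MT_898 together, a choice made after their values were seen, gave -2.92 (adjusted p = 0.000342). Each of these fits leaves out the highest refed mouse or mice, which lowers the refed level by construction. They therefore cannot show a fall of *Fgf21* with refeeding. Refed against fed livers, *Fgf21* was higher by 3.65 (SE 0.99, adjusted p = 0.00590) in WT and 3.61 (SE 0.80, adjusted p = 0.00106) in WT/Y657* mice. The WT call was lost without mouse RF6_WT_900 (2.31, adjusted p = 0.0751), and the WT/Y657* call without RF6_MT_810 and RF6_MT_898 (1.08, adjusted p = 0.240).

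*Gdf15* (ENSMUSG00000038508, chromosome 8, 70629393 to 70632456, minus strand) was called in none of the 11 comparisons by edgeR's quasi-likelihood test, and only the refed genotype comparison reached an unadjusted p under 0.05. Its lowest, median and highest levels in WT mice were 1.29, 2.17 and 2.77 CPM fed, 2.36, 2.62 and 5.47 fasted, and 0.824, 2.78 and 3.77 refed. The WT/Y657* mice held 2.34, 3.69 and 7.26 fed, 2.62, 4.45 and 9.89 fasted, and 1.77, 2.55 and 13.1 refed. The groups overlapped in every comparison. Mice RF6_MT_810 and RF6_MT_898, high in *Fgf21*, were also the highest refed WT/Y657* mice in *Gdf15*, at 13.1 and 12.6 CPM against 1.77 to 2.93 in the other 4. The refeeding change in WT/Y657* livers was 0.20 (SE 0.43, adjusted p = 0.768) over all 6 mice and -1.19 (adjusted p = 0.0144) without these 2. They were left out after their values were seen, and removing the highest mice lowers the refed level by construction. The second value therefore cannot show a fall with refeeding.

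*Angptl4* (ENSMUSG00000002289, chromosome 17, 33773750 to 33781830, minus strand), a PPARα target whose product restrains uptake of triglyceride-derived fatty acids, followed the feeding cycle closely. Its lowest, median and highest levels in WT mice were 26.3, 96.4 and 174 CPM fed, 141, 193 and 239 fasted, and 43.3, 69.0 and 106 refed. Levels in WT/Y657* mice were 18.8, 40.02 and 88.0 fed, 199.7, 235 and 273 fasted, and 19.7, 45.6 and 94.2 refed. Fasted WT/Y657* mice all lay above the fed mice of their genotype, whereas 1 fed WT mouse, at 174 CPM, lay within the fasted range, and refed and fasted mice did not overlap in either genotype. With fasting the log2 fold change was 1.05 (SE 0.35, adjusted p = 0.0234) in WT and 2.25 (SE 0.37, adjusted p = 1.64e-05) in WT/Y657* mice. With refeeding it was -1.43 (SE 0.36, adjusted p = 0.00270) and -2.21 (SE 0.37, adjusted p = 2.37e-05). The WT fasting call was lost without fed mouse ALC_WT_847 (0.85, adjusted p = 0.0562) or ALC_WT_849 (0.93, adjusted p = 0.0592), the fed WT mice with the lowest levels, and in a fit to fed and fasted WT mice and no others (1.05, adjusted p = 0.0528). By number block, fed WT mice held 26.3 to 114 CPM in ALC_WT_847 to ALC_WT_850 and 109 to 174 in ALC_WT_856 and ALC_WT_860. The part of the block in the WT rise was not tested.

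*Inhbe* (ENSMUSG00000047492, chromosome 10, 127348857 to 127354411, minus strand) encodes the βE subunit of activin E, a liver-secreted ligand of the TGF-β family that restrains lipolysis in fat. In WT mice its lowest, median and highest levels were 27.5, 38.4 and 47.0 CPM fed, 92.1, 103 and 132 fasted, and 40.4, 73.4 and 92.8 refed. Every fasted WT mouse lay above every fed one. WT/Y657* mice held 19.8, 30.6 and 43.5 fed, 29.02, 54.8 and 92.8 fasted, and 62.0, 77.2 and 124 refed. The refed WT/Y657* mice, not the fasted ones, held the higher median. Fasting raised *Inhbe* by 1.51 (SE 0.23, adjusted p = 4.38e-06) in WT and 0.96 (SE 0.23, adjusted p = 0.00144) in WT/Y657* mice. Refeeding changed it by -0.65 (SE 0.22, adjusted p = 0.0251) in WT mice, a call that was lost without fasted mouse ONF_WT_919 (-0.59, adjusted p = 0.0586) or ONF_WT_920 (-0.60, adjusted p = 0.0560) or refed mouse RF6_WT_828 (-0.54, adjusted p = 0.0690) or RF6_WT_896 (-0.59, adjusted p = 0.0600). In WT/Y657* mice the value was 0.47 (SE 0.22, adjusted p = 0.111), which passed the threshold without fasted mouse ONF_MT_826 (0.64, adjusted p = 0.0298). Refed livers stayed above fed livers, by 0.86 (SE 0.23, adjusted p = 0.00447) in WT and 1.43 (SE 0.23, adjusted p = 2.14e-05) in WT/Y657* mice, and in WT/Y657* mice these groups did not overlap. Fed WT/Y657* mice differed by number block, at 33.7 to 43.5 CPM in ALC_MT_857 to ALC_MT_859 and 19.8 to 27.5 in ALC_MT_866 to ALC_MT_869. The part of the number block in the changes from the fed state was not tested.

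*Angptl6* (ENSMUSG00000038742, chromosome 9, 20873808 to 20879727, minus strand), also called angiopoietin-related growth factor and known to counter weight gain in mice, moved little with feeding state. In WT mice the lowest, median and highest levels were 10.3, 12.5 and 14.9 CPM fed, 11.4, 14.9 and 15.6 fasted, and 12.5, 13.8 and 14.7 refed. WT/Y657* mice had levels of 15.1, 18.8 and 21.4 fed, 11.4, 14.5 and 16.5 fasted, and 11.98, 16.2 and 17.8 refed. The fed WT/Y657* mice were the highest group, and their range overlapped that of the fasted mice of their genotype. Fasting lowered it in WT/Y657* mice (-0.40, SE 0.11, adjusted p = 0.00404), and the value in WT mice was 0.15 (SE 0.11, adjusted p = 0.309). Refed against fed WT/Y657* livers, it was -0.24 (SE 0.11, adjusted p = 0.0939), called without fed mouse ALC_MT_858 (-0.29, adjusted p = 0.0479).

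The fetuins lie side by side on chromosome 16, *Ahsg* (ENSMUSG00000022868) at 22891277 to 22899449 and *Fetub* (ENSMUSG00000022871) at 22918334 to 22939778, both on the plus strand. *Ahsg* was called in none of the 11 comparisons by edgeR's quasi-likelihood test, and no unadjusted p was under 0.05. Its medians ranged from 5592 CPM in fasted WT to 6389 in fed WT mice, and the groups overlapped in every comparison. In WT mice all values lay between 4675 and 7881 CPM, while in WT/Y657* mice refed mice RF6_MT_810 and RF6_MT_898 reached 10271 and 9728 and fasted mouse ONF_MT_827 reached 8967; the next mice of these groups had 5834 and 6449. The fit to fed and fasted WT mice alone, with its smaller spread, called a fall with fasting (-0.27, adjusted p = 0.0256), against -0.28 (SE 0.15, adjusted p = 0.170) over all groups.

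*Fetub* was lowest after refeeding. Its lowest, median and highest levels in WT mice were 309, 352 and 464 CPM fed, 335, 389.8 and 406 fasted, and 264, 284 and 342 refed. The WT/Y657* mice held 315, 344 and 375 fed, 240.04, 305 and 349.96 fasted, and 236, 269 and 281 refed. Every refed WT/Y657* mouse lay below every fed one, whereas the other feeding groups overlapped. Refed against fed livers, the log2 fold change was -0.36 (SE 0.09, adjusted p = 0.00265) in WT and -0.37 (SE 0.09, adjusted p = 0.00207) in WT/Y657* mice. Against fasted livers it was -0.38 (SE 0.09, adjusted p = 0.00146) in WT and -0.22 (SE 0.09, adjusted p = 0.0603) in WT/Y657* mice, the latter called without fasted mouse ONF_MT_827 (-0.28, adjusted p = 0.0137).

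*Lect2* (ENSMUSG00000021539, chromosome 13, 56542464 to 56548502, minus strand), linked in other work to insulin resistance of muscle, was highest after refeeding in both genotypes. In WT mice the lowest, median and highest levels were 70.5, 79.7 and 87.7 CPM fed, 53.4, 63.5 and 92.1 fasted, and 90.8, 99.9 and 108 refed. Levels in WT/Y657* mice were 45.01, 62.9 and 76.1 fed, 25.3, 43.0 and 53.5 fasted, and 53.2, 80.0 and 90.5 refed. Refeeding raised it by 0.58 (SE 0.14, adjusted p = 0.00160) in WT and 0.89 (SE 0.14, adjusted p = 8.77e-06) in WT/Y657* mice. Fasting changed it by -0.57 (SE 0.14, adjusted p = 0.00222) in WT/Y657* mice, and the value in WT mice was -0.26 (SE 0.14, adjusted p = 0.170), past the threshold without fasted mouse ONF_WT_825, the highest of its group (-0.36, adjusted p = 0.0443). Refed WT mice all lay above fed WT mice, yet this difference of 0.33 (SE 0.14) was not called over all groups (adjusted p = 0.0778) and was called in the fit to these groups alone (0.32, adjusted p = 0.000832). For WT/Y657* mice the same difference was 0.33 (SE 0.14, adjusted p = 0.0821), and it was called without refed mouse RF6_MT_898 (0.41, adjusted p = 0.0234) or fed mouse ALC_MT_859 (0.40, adjusted p = 0.0403). Fed WT/Y657* mice differed by number block here too, at 66.8 to 76.1 CPM in ALC_MT_857 to ALC_MT_859 and 45.01 to 59.0 in ALC_MT_866 to ALC_MT_869. The part of the block in their fasting and refed-against-fed values was not tested.

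*Enho* (ENSMUSG00000028445, chromosome 4, 41638144 to 41640324, minus strand), whose product adropin has been tied to fuel selection between glucose and fat, varied widely within groups. In WT mice the lowest, median and highest levels were 4.18, 17.5 and 31.98 CPM fed, 1.05, 3.50 and 8.21 fasted, and 8.20, 13.8 and 26.6 refed. WT/Y657* mice held 6.38, 9.10 and 18.5 fed, 2.51, 9.73 and 18.1 fasted, and 5.07, 9.75 and 23.1 refed. The 3 WT/Y657* medians lay close together, while the fasted WT median was below the others. In WT mice *Enho* fell with fasting (-2.22, SE 0.51, adjusted p = 0.00101) and rose with refeeding (2.07, SE 0.51, adjusted p = 0.00217), although the ranges overlapped in each case. Fed WT mice differed by number block, with 17.5 to 31.98 CPM in ALC_WT_847 to ALC_WT_850 and 4.18 and 9.22 CPM in ALC_WT_856 and ALC_WT_860, the latter close to or within the 1.05 to 8.21 of fasted WT mice, and the part of the number block in the fall was not tested. In WT/Y657* mice the values were -0.15 (SE 0.47, adjusted p = 0.841) and 0.16 (SE 0.47, adjusted p = 0.829). Their refeeding difference was -0.30 among the lower and 0.82 among the higher numbered mice (3 against 3 each).

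**Figure D2:**
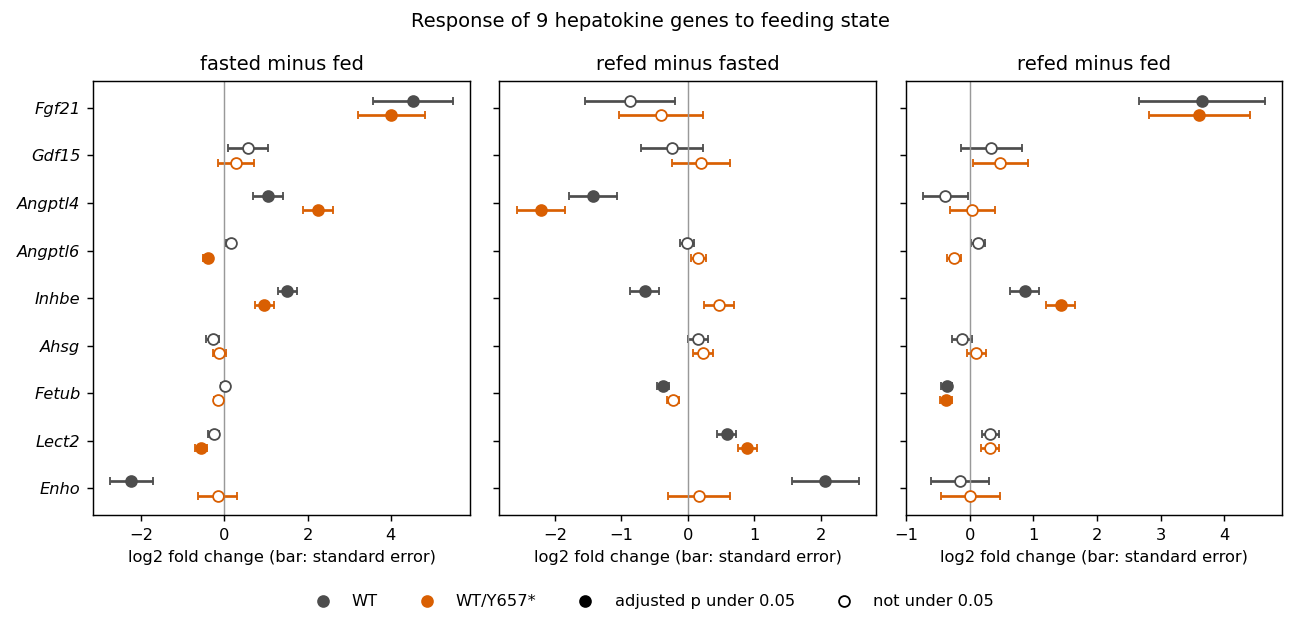
Log2 fold change of each member between feeding states, WT in grey and WT/Y657* in orange, with bars of 1 standard error from edgeR and filled points where the adjusted p is under 0.05. *Fgf21* has the largest rise with fasting, and *Angptl4* rises with fasting and falls with refeeding in both genotypes. *Enho* moves in WT mice (-2.22 and 2.07) and is at -0.15 and 0.16 in WT/Y657* mice. The *Enho* difference between genotypes was called for neither response by edgeR's quasi-likelihood test.

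Genotype was compared within each feeding state. In fasted mice *Inhbe*, *Lect2* and *Fetub* were lower in WT/Y657* livers, 3 of 9 members against 13.1% of all genes tested, and the median log2 difference of the members was 0.15 and that of all genes 0.00. In fed mice *Angptl6* was higher, 1 of 9 against 2.37% of all genes. In refed mice no member was called by edgeR's quasi-likelihood test, its likelihood ratio test, limma-voom or DESeq2, against 0.0287% of all genes, and *Gdf15* and *Lect2* had an unadjusted p under 0.05. All log2 differences are WT/Y657* minus WT, and the fed, fasted and refed comparisons share no mice.

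*Inhbe* in fasted livers ranged from 29.02 to 92.8 CPM in WT/Y657* and from 92.1 to 132 in WT mice, so that 1 WT/Y657* mouse reached the lowest WT mouse. The difference was -0.88 (SE 0.22, adjusted p = 0.00839), 1.84-fold lower. It was -0.96 among the mice with lower numbers and -0.94 among those with higher numbers (3 against 3 each), and it was called under every setting tried. In fed mice it was -0.33 (SE 0.23, adjusted p = 0.479) and in refed mice 0.24 (SE 0.22, adjusted p = 0.755).

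*Lect2* had a lower median in WT/Y657* livers in each state, with differences of -0.39 (SE 0.14, adjusted p = 0.123) fed, -0.70 (SE 0.14, adjusted p = 0.00123) fasted and -0.39 (SE 0.14, adjusted p = 0.362) refed, of which the fasted difference was called. The fed difference was -0.15 within the number block that held both genotypes (3 WT/Y657* and 2 WT mice). With the block as a covariate it was -0.15 (adjusted p = 0.999), a difference taken from the same mice and no separate result. Fasted mice touched at the edge, with WT/Y657* mice reaching 53.5 CPM and WT mice starting at 53.4. In refed livers every WT/Y657* mouse (53.2 to 90.5 CPM) lay below every WT mouse (90.8 to 108), although the difference was not called in a comparison where 0.0287% of all genes were. The fasted difference was -0.93 and -0.50 in the lower and higher numbered mice and was called under every setting. *Fetub* was lower in fasted WT/Y657* mice (-0.29, SE 0.09, adjusted p = 0.0258), at 240.04 to 349.96 CPM against 335 to 406, and the groups overlapped. That call was lost without WT mouse ONF_WT_807 (-0.27, adjusted p = 0.0540) or ONF_WT_919 (-0.27, adjusted p = 0.0622), without WT/Y657* mouse ONF_MT_827 (-0.23, adjusted p = 0.0860), and in a fit to fasted mice alone (-0.27, adjusted p = 0.0688).

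Beside these fasted differences, the adipocyte marker sum was also lower in WT/Y657* mice, at 111 to 572 CPM against 975 to 2089, and nearly all of it was *Car3* (-2.26, adjusted p = 0.000189). *Adipoq*, *Plin1* and *Lep* were at or near 0 in these libraries. Kupffer cell sums were 239.9 to 418 in fasted WT/Y657* and 233 to 422 in fasted WT mice, and hepatocyte sums 82740 to 98229 and 81042 to 106960. Stellate cell sums were 383 to 556 in fasted WT/Y657* and 352 to 433 in fasted WT mice, with medians of 431 and 373. Besides *Car3*, 3 single markers were called: *Dcn* of stellate cells (0.42, SE 0.12, adjusted p = 0.0150) and *Lyve1* of endothelial cells (1.32, SE 0.39, adjusted p = 0.0218) were higher and *Cyp2e1* of hepatocytes (-0.79, SE 0.23, adjusted p = 0.0225) was lower in WT/Y657* mice. The part of these markers in the *Inhbe*, *Lect2* and *Fetub* differences was not tested.

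*Angptl6* was the only member called in fed mice. WT mice ranged from 10.3 to 14.9 CPM and WT/Y657* mice from 15.1 to 21.4, with no overlap, and the difference was 0.57 (SE 0.11, adjusted p = 0.00425), 1.49-fold. Within the number block that held both genotypes, 3 WT/Y657* mice had 15.1 to 19.6 CPM and 2 WT mice 14.1 to 14.9, and the difference was 0.26. With the block as a covariate it was 0.28 (adjusted p = 0.999), with no gene of the whole table called, and in a fit to fed mice alone 0.57 (adjusted p = 0.0628). The covariate fit takes the genotype difference from the same 3 and 2 mice, so it is no separate result and its power was small. *A230050P20Rik*, a gene on the opposite strand that shares 265 exon bases (16.8%) with *Angptl6*, was higher in the same mice by 0.64 (SE 0.14, adjusted p = 0.0148). In other comparisons the 2 genes were sometimes close and sometimes apart. By genotype in refed mice *A230050P20Rik* was at 0.14 and *Angptl6* at 0.19, and with fasting in WT mice they were at 0.42 and 0.15. *A230050P20Rik* was also higher by genotype in fasted mice (0.48, SE 0.14, adjusted p = 0.0219), where *Angptl6* was at 0.02. In refed against fed WT mice it was higher by 0.77 (SE 0.14, adjusted p = 0.000105), where *Angptl6* was at 0.14. With fasting in WT/Y657* mice it was at 0.26 (SE 0.14, adjusted p = 0.164) while *Angptl6* fell. The part of the overlap in the fed difference was not tested. Reads from the overlap cannot be assigned to either gene here, since the strand setting of the counting is not given in the sources used here. In the same fed mice, stellate cell markers summed to 413 to 613 CPM in WT/Y657* and 296 to 469 in WT mice, and Kupffer cell markers to 186 to 627 and 208 to 289, while hepatocyte sums were 59256 to 92279 and 82986 to 96923. Lymphocyte and neutrophil sums were 3.14 to 21.3 CPM in fed WT/Y657* and 1.06 to 7.14 in fed WT mice. Among single markers, *Dcn* of stellate cells (0.43, SE 0.12, adjusted p = 0.0407) and *Nkg7* of lymphocytes (2.78, SE 0.61, adjusted p = 0.0132) were called as higher in WT/Y657* mice. *Nkg7* did not exceed 2.17 CPM in any library. The part of these markers in the *Angptl6* difference was not tested.

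The other fed differences were within the spread after adjustment. *Angptl4* differed by -0.95 (SE 0.36, adjusted p = 0.146), past the threshold without mouse ALC_MT_858 (-1.20, adjusted p = 0.0471). *Gdf15* was at 0.95 (SE 0.47, adjusted p = 0.289) and *Fgf21* at 1.37 (SE 1.19, adjusted p = 0.585), on few counts. *Gdf15* was at 0.66 (SE 0.45, adjusted p = 0.365) in fasted and 1.09 (SE 0.45, adjusted p = 0.405) in refed mice. Without refed mice RF6_MT_810 and RF6_MT_898, left out after their values were seen, the refed value was -0.29 (adjusted p = 0.998). That of *Fgf21*, 1.32 (SE 0.66, adjusted p = 0.533) over all mice, was then -1.20 (adjusted p = 0.998). Single mice moved that *Fgf21* difference either way: it was 2.67 (adjusted p = 0.163) without WT mouse RF6_WT_900 and 0.028 (adjusted p = 0.999) without RF6_MT_810, and it was called in neither case.

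*Enho* differed most by genotype in size among fasted mice, 1.39 (SE 0.52), 2.63-fold higher in WT/Y657* livers, but at an adjusted p of 0.0711 it was not called. The ranges of 2.51 to 18.1 CPM in WT/Y657* and 1.05 to 8.21 in WT mice overlapped. It was 2.39 among the lower and 0.46 among the higher numbered mice. The likelihood ratio test (1.42, adjusted p = 0.0349) and DESeq2 (1.42, adjusted p = 0.0296) called it, as did the main test without WT mouse ONF_WT_807 (1.79, adjusted p = 0.0330) or WT/Y657* mouse ONF_MT_921 (1.59, adjusted p = 0.0328).

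**Figure D3:**
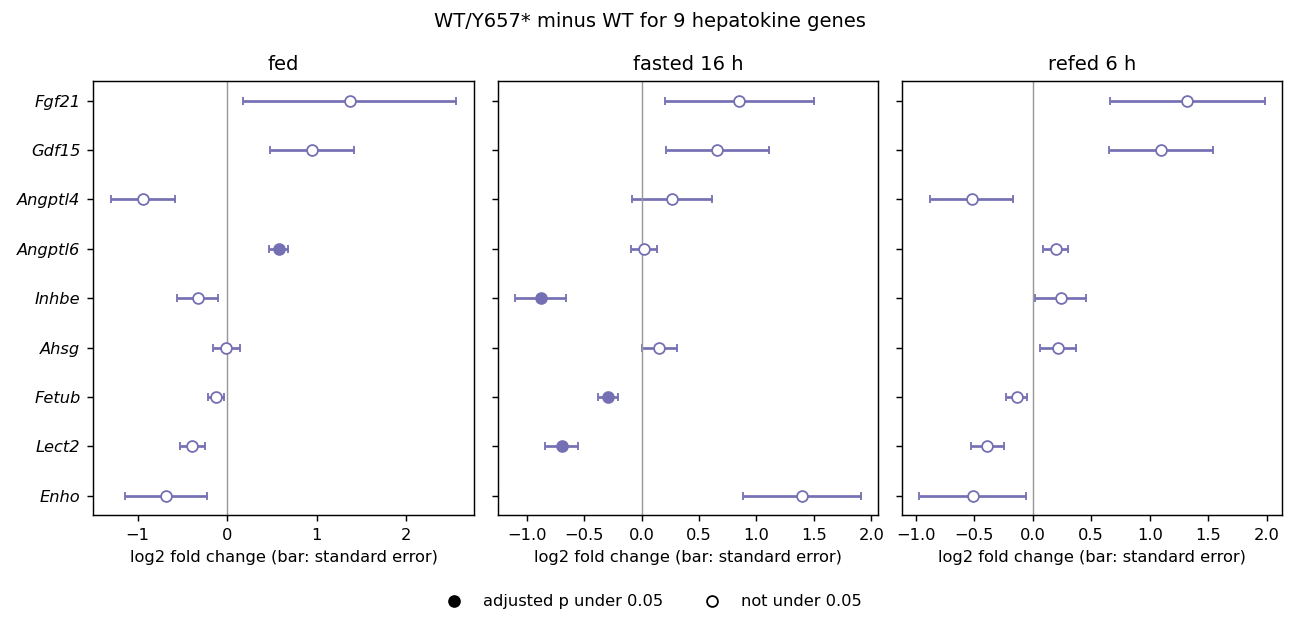
Log2 difference between WT/Y657* and WT livers for each member in fed, fasted and refed mice, with bars of 1 standard error from edgeR and filled points where the adjusted p is under 0.05. The filled points are *Angptl6* in fed mice (0.57) and *Inhbe* (-0.88), *Fetub* (-0.29) and *Lect2* (-0.70) in fasted mice, and none in refed mice.

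The responses themselves were compared between genotypes by interaction terms. For fasting, 1 of 9 members was called, against 4.35% of all genes: *Angptl6* responded by -0.55 (SE 0.16, adjusted p = 0.0327) in WT/Y657* relative to WT mice. The call was lost in a fit without refed mice (-0.56, adjusted p = 0.0523). It was also lost without any 1 of 12 mice, which were fed WT mice ALC_WT_847, ALC_WT_848 and ALC_WT_849, fed WT/Y657* mice ALC_MT_857, ALC_MT_868 and ALC_MT_869, fasted WT mice ONF_WT_824, ONF_WT_825, ONF_WT_918 and ONF_WT_919, and fasted WT/Y657* mice ONF_MT_826 and ONF_MT_923, with values of -0.54 to -0.50 and adjusted p of 0.0505 to 0.0660. *Enho* had an interaction of 2.07 (SE 0.69, adjusted p = 0.0810), called by the likelihood ratio test (2.09, adjusted p = 0.0485) and DESeq2 (2.09, adjusted p = 0.0390) and without WT mouse ONF_WT_807 (2.47, adjusted p = 0.0442) or ALC_WT_856 (2.28, adjusted p = 0.0463) or WT/Y657* mouse ONF_MT_921 (2.27, adjusted p = 0.0428). *Angptl4* had an interaction of 1.21 (SE 0.50, adjusted p = 0.173), which was not called. All 3 terms rest in part on the fed mice, whose numbers go with genotype.

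For refeeding, no member was called by edgeR's quasi-likelihood test, against 2.06% of all genes, and *Inhbe* and *Enho* had an unadjusted p under 0.05. *Inhbe* changed by -0.65 in WT and 0.47 in WT/Y657* mice, a difference of 1.12 (SE 0.31, adjusted p = 0.0536). This difference was called by the likelihood ratio test (1.12, adjusted p = 0.0288), limma-voom (1.21, adjusted p = 0.0255) and DESeq2 (1.12, adjusted p = 0.0135), with at least 10 counts required in every library (1.11, adjusted p = 0.0406), and without refed mouse RF6_MT_899 (1.19, adjusted p = 0.0417) or RF6_WT_900 (1.22, adjusted p = 0.0466) or fasted mouse ONF_MT_826 (1.29, adjusted p = 0.0251). *Enho* differed by -1.91 (SE 0.69, adjusted p = 0.149).

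Genes of the pathways around the members were examined in lists written by hand, with the members taken out. Each count is to be read against the share of all genes called in that comparison, which was 32% in WT and 32.9% in WT/Y657* mice with fasting, 30.2% and 31.3% with refeeding, and 2.37%, 13.1% and 0.0287% by genotype in fed, fasted and refed mice. Of 18 genes of the PPARα and CREB3L3 fasting programme, which drives fatty acid oxidation and to which *Fgf21* and *Angptl4* belong, all 18 rose with fasting in each genotype, with a median log2 fold change of 1.60 in WT and 1.33 in WT/Y657* mice. They included *Cpt1a*, the carnitine palmitoyltransferase that admits fatty acids to mitochondria (1.60 and 1.34), and *Plin2*, a lipid droplet coat protein (1.76 in WT mice). With refeeding 10 fell in WT and 9 in WT/Y657* mice. In fasted mice 4 of the 18 were lower in WT/Y657* livers, among them *Ppara* itself (-0.55, SE 0.10, adjusted p = 0.000328) and *Plin2* (-0.39, SE 0.11, adjusted p = 0.0172), with a median of -0.13 over the list and 0.00 over all genes.

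Of 19 tested genes of the ATF4 and CHOP stress programme, 7 changed with fasting in WT mice, 4 up and 3 down, and 3 in WT/Y657* mice, 2 up and 1 down. The first count was near the 32% of all genes called and the second below the 32.9%. *Atf5* rose in both (1.31 and 1.01). With refeeding 5 changed in WT mice, 1 up and 4 down, and 8 in WT/Y657* mice, 5 up and 3 down, beside 30.2% and 31.3% of all genes. Refed livers held 7 genes above fed livers in WT/Y657* mice, led by *Ddit3*, which encodes CHOP (1.67, SE 0.25, adjusted p = 4.67e-06). In that comparison 26.1% of all 13945 genes were called, 1806 genes as higher. *Ddit3* was also the list's 1 called gene by genotype in refed mice (1.37, SE 0.24, adjusted p = 0.0171), where the list's median was 0.84 and that of all genes 0.01. In that comparison 4 of all genes were called. The list's refed values were not examined without mice RF6_MT_810 and RF6_MT_898, on which the refed *Fgf21* and *Gdf15* differences depended. In fasted mice 3 were higher and 1 lower by genotype.

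Of 10 tested FGF21 receptor and feedback genes, 5 changed with fasting in each genotype, 1 higher and 4 lower. All genes were called at 32% and 32.9% in these comparisons. *Klb*, the gene of the co-receptor β-Klotho, rose (0.71 in WT mice), while *Fgfr3* (-0.78 and -1.01) and *Fgfr1* (-1.07 and -0.74) fell. By genotype in fasted mice *Spry4*, a feedback inhibitor of FGF signalling (-0.93, SE 0.27, adjusted p = 0.0166), and *Fgfr3* (-0.30, SE 0.09, adjusted p = 0.0215) were lower. With refeeding 2 changed in WT (*Fgfr3* 0.45, *Klb* -0.52) and 1 in WT/Y657* mice (*Fgfr3* 0.71).

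Of 12 tested activin and GDF ligands, receptors and antagonists, 5 changed with fasting in WT mice, 3 up and 2 down, and 4 in WT/Y657* mice, 2 up and 2 down. These counts were close to the 32% and 32.9% of all genes called. *Inhba*, the βA activin subunit, fell (-1.52 and -1.83), opposite to *Inhbe*, and *Inhbb* rose (1.36 and 1.28). With refeeding 6 changed in WT mice, 1 up and 5 down, and 5 in WT/Y657* mice, 1 up and 4 down, and *Fst*, which encodes the activin-binding protein follistatin, fell (-2.45 and -2.62). By genotype in fasted mice 2 were lower, *Smad7*, an inhibitory SMAD (-0.85, SE 0.19, adjusted p = 0.00298), and *Acvr1b*, an activin receptor (-0.34, SE 0.11, adjusted p = 0.0335).

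Of the other angiopoietin-like genes 4 were tested, and *Gm6484*, the older symbol of *Angptl8*, was the most responsive. It rose with refeeding by 2.02 (SE 0.40, adjusted p = 0.000255) in WT and 2.60 (SE 0.42, adjusted p = 1.46e-05) in WT/Y657* mice, in each case with *Angptl4* falling. With fasting *Angptl2* fell in both genotypes (-0.36 and -0.56) and *Gm6484* fell in WT/Y657* mice (-1.74, SE 0.41, adjusted p = 0.00136). Of 11 genes around lipoprotein lipase, 5 changed with fasting in WT mice, 4 up and 1 down, and 5 in WT/Y657* mice, 2 up and 3 down, beside 32% and 32.9% of all genes, and *Apoa5*, an activator of the lipase, rose (0.91 and 0.38). With refeeding 4 changed in WT mice, 1 up and 3 down, and 2 in WT/Y657* mice, 1 up and 1 down. *Lipc*, hepatic lipase, was lower by genotype in fasted mice (-0.75, SE 0.16, adjusted p = 0.00215), and *Gpihbp1*, the capillary anchor of the lipase, was higher in fed mice (0.50, SE 0.13, adjusted p = 0.0336).

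Of 20 other genes of secreted liver proteins, 11 changed with fasting in WT mice, 7 up and 4 down, and 10 in WT/Y657* mice, 8 up and 2 down. *Grn*, progranulin, rose in both (0.98 and 1.12) and *Manf*, a secreted neurotrophic factor, rose with refeeding in both (1.89 and 1.76). With refeeding 6 changed in WT mice, 2 up and 4 down, and 8 in WT/Y657* mice, 3 up and 5 down. The first of these refeeding counts was near the 30.2% of all genes called. By genotype 7 differed in fasted mice (5 higher, 2 lower), beside 13.1% of all genes. *Serpinb1a* was lower (-1.76, SE 0.30, adjusted p = 0.000198) and *Sepp1*, the gene of selenoprotein P, higher (0.30, SE 0.08, adjusted p = 0.0149), while in fed mice *Igf1* was the 1 called gene (0.32, SE 0.09, adjusted p = 0.0378).

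The members also varied between mice of the same group. Levels were taken as log2 CPM minus the group mean, and all 36 pairs of members were correlated over the 36 mice, with a permutation test within groups (100000 resamples, two-sided, adjusted over the 36 pairs). By Pearson's r, 7 pairs had an adjusted p under 0.05. *Ahsg* and *Enho* rose and fell together, with r = 0.62 and an adjusted permutation p of 0.00288, Spearman's rho = 0.62 and an adjusted permutation p of 0.00576, r = 0.63 without the 2 mice farthest from the median of *Ahsg*, and a positive r in 6 of 6 groups (0.47 to 0.90). *Fgf21* and *Ahsg* had r = 0.69 (adjusted permutation p = 0.00414), rho = 0.66 (adjusted permutation p = 0.00756) and r = 0.70 without the 2 mice farthest from the median of *Fgf21*. Mice RF6_MT_898 and ONF_MT_827, high in both genes, stayed in, so the last value does not show the relation without its highest mice. Within groups the r of *Fgf21* and *Ahsg* was 0.94, 0.88 and 0.92 in fed, fasted and refed WT/Y657* mice and 0.34, 0.07 and 0.23 in the same states of WT mice, a difference that was not tested. *Fgf21* and *Gdf15* had r = 0.66 (adjusted permutation p = 0.0185), rho = 0.56 (adjusted permutation p = 0.0222) and r = 0.64 without the same 2 mice, with within-group values of -0.39 to 0.93.

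**Figure D4:**
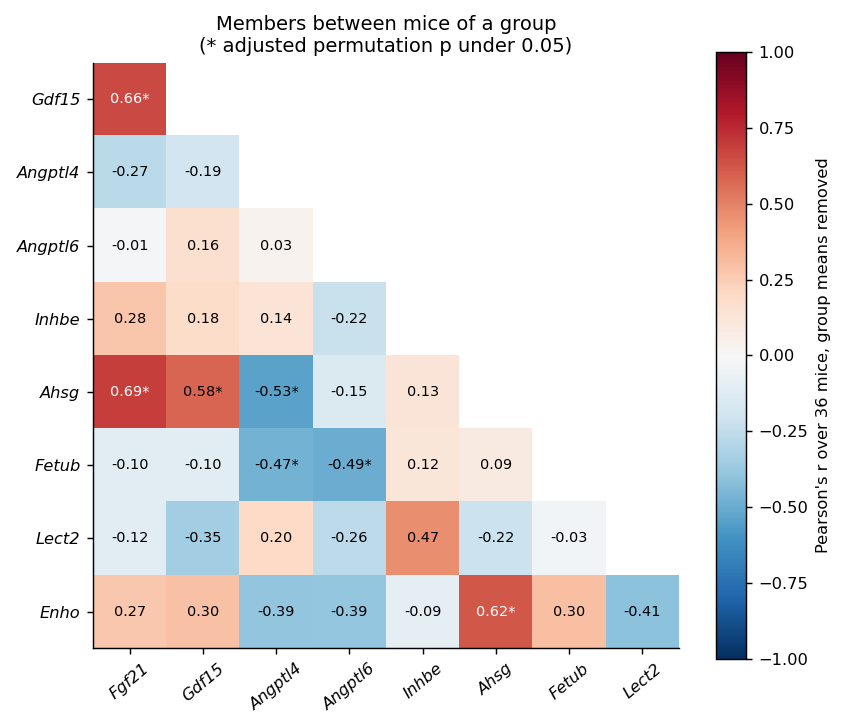
Pearson's r between members over 36 mice after the mean of each group was removed, with asterisks where the permutation p adjusted over 36 pairs is under 0.05. *Fgf21*, *Gdf15* and *Ahsg* are positively related to each other (0.58 to 0.69), and *Angptl4* is negatively related to *Ahsg* (-0.53) and *Fetub* (-0.47).

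The pair of *Gdf15* and *Ahsg* had r = 0.58 (adjusted permutation p = 0.0476) and rho = 0.43 (adjusted permutation p = 0.132), and fell to r = 0.39 without 2 mice, so it rests on those mice. *Angptl4* was negatively related to *Ahsg*, with r = -0.53 (adjusted permutation p = 0.00672), rho = -0.50 (adjusted permutation p = 0.0181) and r = -0.48 without 2 mice (adjusted permutation p = 0.0584). It was likewise related to *Fetub*, with r = -0.47 (adjusted permutation p = 0.0328), rho = -0.50 (adjusted permutation p = 0.0250) and r = -0.36 without 2 mice (adjusted permutation p = 0.105). *Angptl6* and *Fetub* had r = -0.49 (adjusted permutation p = 0.0328), rho = -0.55 (adjusted permutation p = 0.0181) and r = -0.59 without 2 mice (adjusted permutation p = 0.0101). The values of 1 mouse come from 1 library, so whatever a library shares over genes enters all its pairs.

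**Figure D5:**
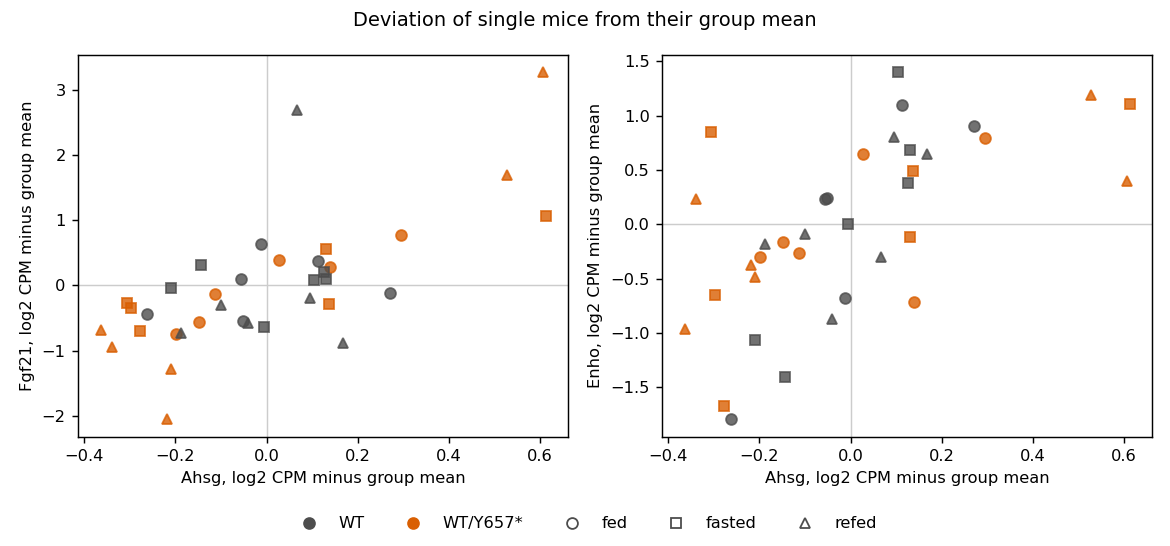
Deviation of single mice from their group mean on the log2 scale, *Ahsg* on the horizontal axis against *Fgf21* at left and *Enho* at right, WT in grey and WT/Y657* in orange, with circles for fed, squares for fasted and triangles for refed mice. The 3 points at the far right are WT/Y657* mice RF6_MT_810, RF6_MT_898 and ONF_MT_827, which are also high in *Fgf21*.

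Some mice stood high in several members, and the correlations were not computed with all of them left out. Refed WT/Y657* mice RF6_MT_810 and RF6_MT_898 and fasted WT/Y657* mouse ONF_MT_827 were the highest of their groups in *Fgf21*, *Gdf15* and *Ahsg* together, whereas refed WT mouse RF6_WT_900 was high in *Fgf21* (22.7 CPM) and within its group in *Gdf15* (3.05 CPM) and *Ahsg* (6315 CPM). Mouse RF6_MT_810 also had the highest *Inhbe* of its group (124 CPM) and the lowest *Angptl4* (19.7 CPM). Of these, mouse RF6_MT_898 was the farthest from its group over all genes, with a root mean square log2 distance of 0.47 and 687 genes beyond 1, and the highest Kupffer cell sum of its group (605 CPM). Mouse RF6_MT_810 was at 0.38 with a Kupffer cell sum of 330 CPM, and mouse ONF_MT_827 at 0.44 with 395. The part of cell composition in these values was not tested.

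Over all 36 mice, the genes with levels most like each member were listed as a description, from 12601 genes with a mean of at least 1 CPM, by Pearson's r of log2 CPM. The feeding states drive most of these values. *Fgf21* was most like *Agpat9* (r = 0.90), *Mat1a* (0.89) and *Atf5* (0.88). *Gdf15* was nearest to *Cdkn1a* (0.67), *Chka* (0.66) and *Itih2* (0.66), and *Angptl4* to *Cmtm4* (0.87), *Nceh1* (0.87) and *Slc25a47* (0.86). *Inhbe* was nearest to *G0s2* (0.86), *Cpox* (0.86) and *Acaa1a* (0.86), and *Lect2* to *Akr1c20* (0.89), *Apol7a* (0.86) and *Alad* (0.86). The fetuins had *Tmem184c* (0.76) and *Plxnb1* (0.75) beside *Ahsg*, and *Eef2* (0.82), *Plg* (0.82) and *Ttc39b* (0.81) beside *Fetub*. *Enho* was nearest to *Aph1b* (0.76), *Rpsa* (0.75) and *Serpina1e* (0.74), and *Angptl6* to *Gpr126* (0.65), *9130409I23Rik* (0.65) and *Agxt2l1* (0.63).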

How the data were processed

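Total RNA of snap-frozen livers was sequenced as stranded, single-end libraries. The authors deposited estimated counts per gene, not normalized, which were not whole in 3.638% of values above 0 and were rounded. The labels name Cuffdiff and featureCounts, but no strand setting. The submitters' processing notes name mm9, whereas 99.659% of 36341 gene loci in the file overlapped their GENCODE M21 gene on GRCm38, from which coordinates and exon lengths were taken. In the file the loci of *Angptl6* and *Enho* reach beyond the GENCODE genes, and that of *Inhbe* is shorter than the GENCODE exon length used to scale it. A second deposited table of fitted values was not used.

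Groups came from the sample labels. The tests ran in edgeR 4.0.16 under R 4.3.3 (filterByExpr, TMM, glmQLFit with robust dispersions, 1 coefficient per group over 36 libraries) and tested two-sided with Benjamini-Hochberg adjustment over 13945 genes and a threshold of 0.05. SEs are the log2 fold change divided by the root of F. CPM uses TMM-scaled totals, and log2 CPM a prior count of 2. The fit was tested on simulated data. Correlations used Python 3.11.15 with numpy 2.4.6.

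Alternatives were the likelihood ratio test, limma-voom (limma 3.58.1), DESeq2 1.42.0, other scaling and filters, fits to the groups compared, mouse number covariates, and each mouse left out. Genes named are the 9 members, those among the 3 called genes with the smallest p of a list in a comparison, and the 3 genes most like each member (mean of at least 1 CPM). Some genes that this rule names are not reported here. Members and lists were chosen with earlier results of these data known. Labels do not say whether mice shared a litter or cage, and p-values measure the spread between these mice.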

Additional observations from a re-analysis of the deposited data

Results flagged for a closer look

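In 3 of 54 sets of 6 mice (9 members in 6 groups), 1 mouse lay far from the others by Dixon's gap test, and chance flags about 1 in 20 such sets. Refed WT mouse RF6_WT_900 had 22.7 CPM of *Fgf21*, against 2.93 in the next mouse. Refed WT/Y657* mouse RF6_MT_810 had 58.2 CPM of *Fgf21*, against 19.4 in the next mouse, and 124 CPM of *Inhbe*, against 79.4. The fasting response of *Angptl6* differed between genotypes by -0.55 on the log2 scale (edgeR interaction term, adjusted p = 0.0327), from 0.15 in WT to -0.40 in WT/Y657* mice.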

How the results depend on the processing

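No paired analysis was possible because no mouse number is shared between groups. No called member value changed sign under any alternative. With 1 mouse left out at a time, 1321 member values kept direction and side of the threshold, 22 lost the call, 17 gained it and 44 uncalled ones changed sign; under the other settings these counts were 842, 7, 18 and 26. The cause was not tested.

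Genotype in fed mice called 330 genes (2.37% of those tested), against 516 (3.70%, likelihood ratio test), 644 (4.62%, DESeq2), 756 (5.42%, library size alone), 207 (0.819%, no filter), 30 (0.231%, fed libraries alone), 0 (number block as covariate) and 0.483% to 6.35% with 1 mouse left out. Members called there were 1, against 0 with the block, 0 with fed libraries alone and 1 to 2 with 1 mouse left out. The block fit takes the genotype difference from 3 WT/Y657* and 2 WT mice alone. Leaving out 1 mouse gave 8.30% to 14.2% of genes in fasted mice (13.1% with all) and 0.00709% to 0.0426% in refed mice. Refed mice had 4 genes called, 18 (0.129%) by the likelihood ratio test, 25 (0.179%) by DESeq2 and 1 (0.00704%) without mice RF6_MT_810 and RF6_MT_898. These mice were picked after their values were seen. The fasting interaction called 607 genes (4.35%) and 386 (1.53%) with no filter, and of members 2 (likelihood ratio test), 2 (DESeq2), 0 (groups compared alone) and 0 to 2 (1 mouse left out). The refeeding interaction called 287 genes (2.06%), 152 (0.601%) with no filter, 170 (1.20%) without these mice and 0.881% to 2.77% with 1 mouse left out, and 1 member by the likelihood ratio test, limma-voom, DESeq2 and with at least 10 counts in every library (0 to 1 with 1 mouse left out). Members called were 2 for fasting in WT mice with at least 10 counts, a filter that removed *Fgf21*, *Gdf15* and *Enho*, and 4 for refeeding in WT/Y657* mice without these mice.

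Uncalled log2 values changed sign as follows. With the fed block, genotype in fed mice gave *Inhbe* 0.051, *Ahsg* 0.019, *Fetub* 0.11 and *Enho* 0.74. *Ahsg* there was 0.10 by library size alone and 0.0016 with at least 10 counts. Without these mice, genotype in refed mice gave *Fgf21* -1.20, *Gdf15* -0.29 and *Ahsg* -0.12; refeeding in WT/Y657* mice gave *Gdf15* -1.19, *Ahsg* -0.12 and *Enho* -0.36; refed against fed gave *Gdf15* -0.91, *Ahsg* -0.24 and *Enho* -0.52; and the refeeding interaction gave *Fgf21* -2.04, *Gdf15* -0.95 and *Ahsg* -0.27. *Angptl6* with refeeding in WT mice was 0.013 by limma-voom and 0.054 by library size alone, and *Gdf15* with refeeding in WT/Y657* mice -0.16 by limma-voom. *Enho* in refed against fed WT/Y657* mice was -0.0048 (likelihood ratio test), -0.0059 (limma-voom), -0.00076 (no filter), -0.0023 (groups compared alone) and -0.013 (DESeq2).

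With 1 mouse left out, genotype gave *Ahsg* -0.073 to 0.050 in fed and *Angptl6* -0.035 to 0.068 in fasted mice. Fasting gave *Fetub* -0.034 to 0.087 in WT, and *Gdf15* -0.032 to 0.53 and *Enho* -0.41 to 0.049 in WT/Y657* mice. Refeeding gave *Angptl6* -0.070 to 0.015 in WT, and *Gdf15* -0.22 to 0.52 and *Enho* -0.17 to 0.42 in WT/Y657* mice. Refed against fed gave *Enho* -0.36 to 0.083 in WT, and *Angptl4* -0.24 to 0.29, *Ahsg* -0.033 to 0.18 and *Enho* -0.33 to 0.21 in WT/Y657* mice. The refeeding interaction gave *Fgf21* -0.82 to 1.82 and *Ahsg* -0.072 to 0.21. Depth limits *Fgf21* most, with 3 to 11 counts in fed WT libraries.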
